A study of Mus musculus with 12 samples.

Results

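The comparison set 2 libraries of KO thymocytes labelled 24 h before harvest against 2 libraries of the whole KO pre-selection pool at steady state, out of 12 Tcra repertoire libraries in the series. The 4 were chosen by their titles alone. KO 24 h cells were ZsGreen+ CD3e(-) double-positive (DP) thymocytes, positive for CD4 and CD8, from mice given 1 mg of tamoxifen by intraperitoneal injection 24 h before sacrifice. KO steady-state cells were CD3e(-) DP thymocytes from mice for which the labels give neither tamoxifen nor a ZsGreen gate. All 4 came from mice aged 4 to 6 weeks that were homozygous for DPASEKO and carried TcrdCreER and a Rosa26 ZsGreen reporter. The background was C57BL/6J, with the Tcra-Tcrd loci of strain 129. The strain label gives the reporter as Rosa26ZsG/ZsG and the genotype label as Rosa26ZsG/+. WT 24 h and WT steady-state libraries, 2 of each and sorted alike, stand beside them without DPASEKO. Their mice were also aged 4 to 6 weeks, and those of WT 24 h were given 1 mg of tamoxifen 24 h before sacrifice. In the main fit the other 4 libraries, labelled 48 h before harvest, entered only the common estimate of the spread. Some added fits also used them for a term shared across groups, and some of their replicate differences are quoted below. Libraries were made from total RNA by RACE, which copies transcripts from a primer in the constant segment Trac out to their 5′ ends and so reads whichever Trav they carry. The series' text speaks of groups of 2 mice and does not say whether each library held 1 mouse, so p-values measure the spread between libraries, which may be technical. Tamoxifen, the ZsGreen gate and the sampling cannot be told apart, since all 3 separate the same groups.

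A Tcra gene is assembled by joining a Trav segment to a Traj segment with the RAG recombinase. On each allele the joining can repeat: the next join uses a Trav farther from the Traj array and a Traj nearer to its 3′ end, and removes the DNA between. The TEA promoter lies upstream of the most 5′ Traj segments and a second promoter lies near Traj49; both direct recombinase to the segments that follow them. Tcrd lies inside the Tcra locus and is lost with the first Trav to Traj join, so a tamoxifen-activated Cre made from Tcrd marks cells before or about when their Tcra joining starts. DPASE is a regulatory element of the Rag1 and Rag2 locus in DP thymocytes. The comparison thus addresses which segments the recently labelled cohort used, set against a pool that has had longer to rearrange.

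Each deposited table gives the fraction of the repertoire held by each Trav and Traj pair, and was rescaled to 100% over the 80 Trav segments listed in all 4 KO tables and 43 Traj segments, which make 3440 pairs. A share is a share of transcripts, so fewer cells using a segment and less RNA per such cell cannot be told apart. Read depth is unknown. The KO 24 h replicate 2 table stood apart: its fractions summed to 1.97, against 0.995 to 0.998 in the other 3 KO tables. Its smallest share above 0 was 0.00579%, against 0.000824% in KO 24 h replicate 1 and 0.000359% and 0.000346% in the KO steady-state libraries. Pairs listed at 0 numbered 496 in KO 24 h replicate 1 and 1914 in replicate 2, against 54 and 51 in KO steady state. The median absolute difference of a Trav share between replicates was log2 1.04 in KO 24 h and log2 0.14 in KO steady state. Over the Trav segments, the replicate differences of KO 24 h went with those of the other 3 groups whose replicate 2 table summed to near 2 (Pearson r from 0.88 to 0.93, a description over 79 or 80 segments of shared tables). In KO 24 h the Traj sums differed less between replicates than the Trav sums (median absolute deviation from the group mean log2 0.14 and 0.52), while in KO steady state both were at log2 0.07. Trav and pair results are therefore given with and without this library. Only Tcra segments are listed, so the deletion was not checked here against a measured value.

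The Traj segments at both ends of the change are shown because the result turns on them. They are the 4 segments of the most 5′ block and the 4 with the lowest fold changes, from the GENCODE M21 transcripts of the C57BL/6J reference (GRCm38, plus strand), so bases of the strain 129 alleles may differ. Capitals mark the codons of the phenylalanine-glycine-any-glycine motif that defines a J segment, which 40 of the 43 Traj segments (93.0%) hold on this strand and none on the other. Traj44, Traj38 and Traj33 do not hold these letters.
Traj58, chr14:54157280-54157342: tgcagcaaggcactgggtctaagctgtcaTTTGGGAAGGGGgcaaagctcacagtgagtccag
Traj57, chr14:54158507-54158569: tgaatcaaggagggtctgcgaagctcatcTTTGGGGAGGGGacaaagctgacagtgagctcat
Traj56, chr14:54159263-54159325: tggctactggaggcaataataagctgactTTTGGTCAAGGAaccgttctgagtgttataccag
Traj53, chr14:54162644-54162709: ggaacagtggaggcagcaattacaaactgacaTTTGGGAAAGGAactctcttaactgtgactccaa
Traj13, chr14:54205741-54205797: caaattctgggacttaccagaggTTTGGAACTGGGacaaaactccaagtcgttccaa
Traj12, chr14:54206553-54206610: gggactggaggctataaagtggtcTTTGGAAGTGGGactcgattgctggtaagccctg
Traj11, chr14:54207139-54207197: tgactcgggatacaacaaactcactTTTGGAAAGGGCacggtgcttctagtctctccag
Traj9, chr14:54209393-54209450: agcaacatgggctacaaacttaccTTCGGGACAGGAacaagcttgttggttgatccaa
The 9 segments that rose had a median length of 63 bases (61 to 66) and the 28 that fell one of 60 (57 to 66). The usage-weighted germline length was 62.3 and 62.5 bases in the KO 24 h libraries, against 61.5 and 61.4 in KO steady state. Length is a property of the segments chosen, so it adds no evidence to their usage.

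At 24 h the KO cohort used the 5′ end of the Traj array far more, and its 3′ end far less, than the KO pool at steady state. Of the 43 Traj segments, 9 rose (20.9%), 28 fell (65.1%) and 6 were not called (limma on log2(percent + 0.01), Benjamini-Hochberg adjusted p under 0.05). Both KO 24 h libraries lay above both KO steady-state libraries for 10 segments (23.3%) and below both for 30 (69.8%). Shares sum to 100%, and the median segment moved by log2 -1.24. With each library centred on its mean log share, every fold change is higher by log2 1.10, and 19 segments (44.2%) were called higher and 21 (48.8%) lower. The directions of Traj58 to Traj45 and of Traj30 to Traj2 hold on both scales, and 9 of the segments from Traj44 to Traj31 change sign with the scale, all but Traj43, Traj42 and Traj38.

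**Figure D1:**
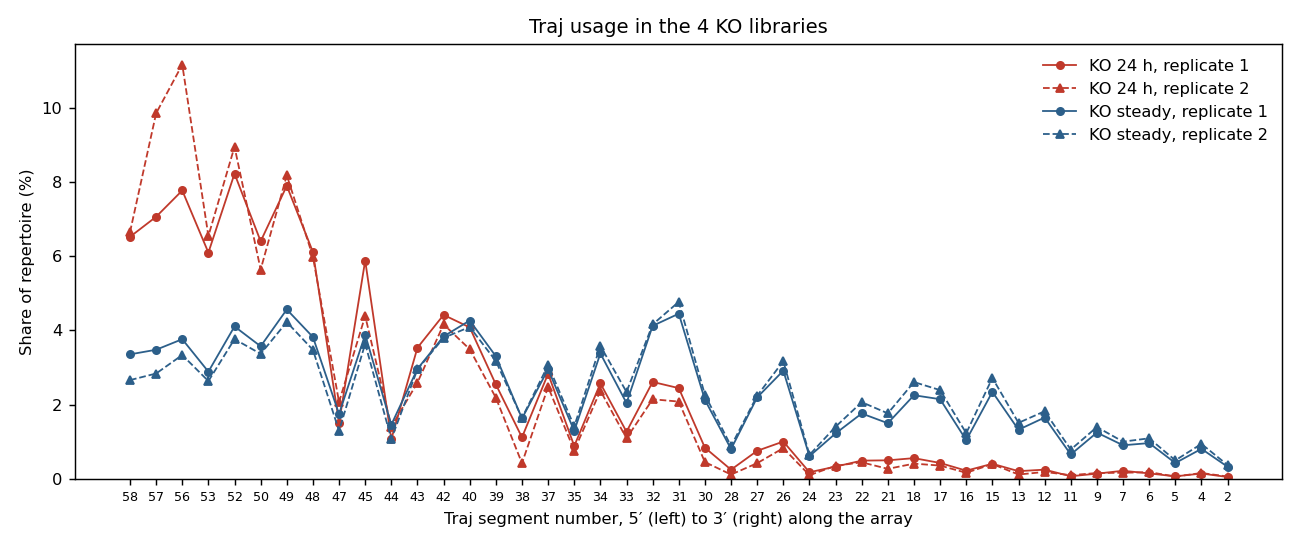
Share of the repertoire (%) of each of the 43 Traj segments, in 5′ to 3′ order, in 2 KO 24 h libraries (red) and 2 KO steady-state libraries (blue). Both red points lie above both blue points from Traj58 to Traj45, Traj47 apart, and at Traj42; the groups overlap at Traj47, Traj44 and Traj43, and both red points lie below both blue points from Traj40 to the 3′ end.

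All 4 segments of the block from Traj58 to Traj53, which follows the TEA promoter, rose. Together they held 27.5% and 34.2% of the repertoire in KO 24 h, against 13.5% and 11.5% in KO steady state. Traj57 held 7.06% and 9.85% in KO 24 h, against 3.48% and 2.84% in KO steady state (log2 fold change 1.41, SE 0.20, adjusted p = 0.000101, limma). Traj56 held 7.77% and 11.2% in KO 24 h, against 3.76% and 3.33% in KO steady state (1.39, SE 0.21). Traj53 and Traj58 rose by log2 1.19 (SE 0.15) and 1.14 (SE 0.26). For these 4 segments the groups did not overlap, and KO 24 h replicate 2 was the higher of its group.

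Of the 6 segments of the block from Traj52 to Traj45, which holds the promoter near Traj49, 5 rose and Traj47 was not called (log2 0.23, SE 0.28). The block held 36.0% and 35.2% in KO 24 h, against 21.7% and 19.8% in KO steady state. Traj52 held 8.23% and 8.95% in KO 24 h, against 4.11% and 3.76% in KO steady state (log2 1.12, SE 0.13, adjusted p = 1.93e-05, limma). Traj49 held 7.90% and 8.18% in KO 24 h, against 4.56% and 4.22% in KO steady state (log2 0.87, SE 0.17). For Traj52 and Traj49 the groups did not overlap. Traj50, Traj48 and Traj45 rose by log2 0.79, 0.73 and 0.43. The call of Traj45 is lost without KO 24 h replicate 1 or without either KO steady-state library (adjusted p = 0.0699 to 0.230, limma).

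The change crossed 0 in the next block. Traj44 to Traj39 together held 15.6% and 13.8% in KO 24 h, against 15.8% and 15.1% in KO steady state, and the groups overlapped. Of its 5 segments, 1 fell (Traj39, log2 -0.46) and 4 were not called, while on the centred scale all 5 were called higher. The block from Traj38 to Traj31 held 13.7% and 11.3% in KO 24 h, against 19.9% and 20.96% in KO steady state. There 6 of 7 segments fell, and Traj37 was not called; on the centred scale 4 of the 7 were called higher and none lower. Traj33, which joins Trav1 in the receptor of mucosal-associated invariant T (MAIT) cells, held 1.27% and 1.09% in KO 24 h, against 2.04% and 2.34% in KO steady state (log2 -0.89, SE 0.14, adjusted p = 0.000241, limma). Without KO 24 h replicate 2, Traj38 is not called (adjusted p = 0.112, limma).

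All 21 segments from Traj30 to Traj2 fell, on either scale. The block from Traj30 to Traj22 held 3.82% and 2.69% in KO 24 h, against 11.6% and 12.7% in KO steady state. Traj21 to Traj12 held 2.54% and 1.87% in KO 24 h, against 12.2% and 14.0% in KO steady state. Traj11 to Traj2, the 3′ end, held 0.806% and 0.854% in KO 24 h, against 5.31% and 6.07% in KO steady state. The median log2 fold changes of these 3 blocks were -1.96, -2.54 and -2.61, beside -1.24 over all Traj segments.

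Among the lowest, Traj13 held 0.203% and 0.112% in KO 24 h, against 1.32% and 1.51% in KO steady state (log2 -3.14, SE 0.28, adjusted p = 2.93e-06, limma). Traj9 held 0.136% and 0.153% in KO 24 h, against 1.24% and 1.39% in KO steady state (log2 -3.10, SE 0.15, adjusted p = 1.42e-07, limma). These are mean shares 8.98 and 9.12 times higher in KO steady state, with the KO 24 h libraries close together. Traj11, Traj12, Traj5, Traj15, Traj6, Traj16 and Traj17 had log2 fold changes of -3.03, -2.98, -2.72, -2.63, -2.61, -2.54 and -2.52. Traj18, the J segment of invariant natural killer T (NKT) cells, held 0.554% and 0.406% in KO 24 h, against 2.25% and 2.61% in KO steady state (log2 -2.33, SE 0.28). At the very end, Traj4 held 0.139% and 0.153% in KO 24 h, against 0.805% and 0.938% in KO steady state. Traj2 held 0.0461% and 0.0589% in KO 24 h, against 0.321% and 0.368% in KO steady state (log2 -2.51, SE 0.18). Traj7 to Traj2 had log2 fold changes between -2.72 and -2.30, and Traj13 to Traj9 between -3.14 and -2.98; the difference between these neighbours was not tested.

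**Figure D2:**
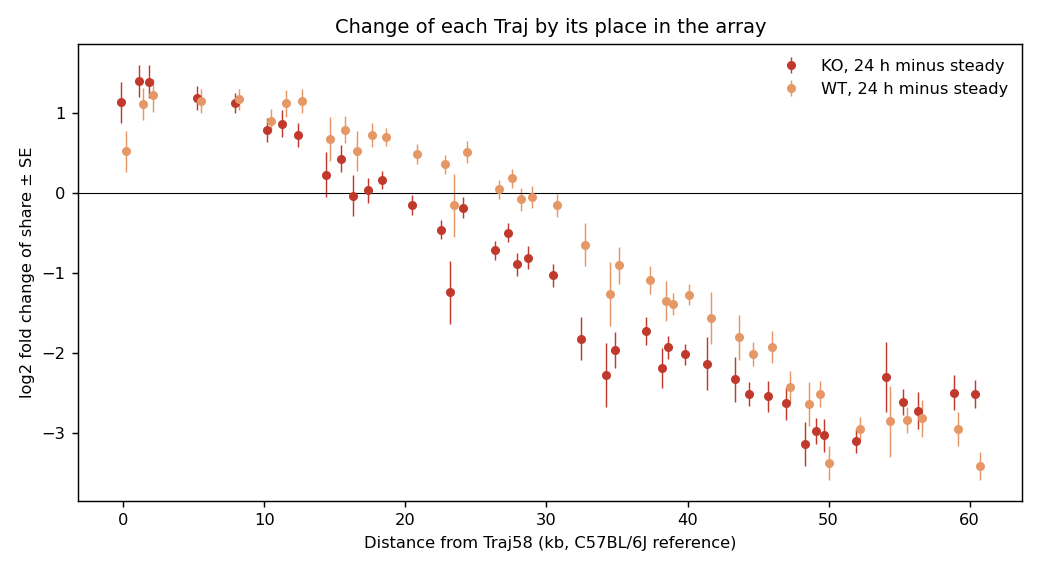
Log2 fold change of each Traj share, 24 h against steady state (mean ± SE from limma, 2 libraries a group), against the distance from Traj58 in kb, in KO (red) and WT (orange). KO points pass 0 between 16.4 and 20.6 kb and WT points between 23.3 and 28.1 kb; at Traj2, 60.6 kb, the KO point is at -2.51 and the WT point at -3.41.

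The fold change followed position along the 60.6 kb array. Its Spearman rank correlation with distance from Traj58 was -0.960 in KO and -0.975 in WT over 43 segments of the same libraries, given as a description. In KO 24 h, 50% of usage was reached 12.5 and 11.4 kb from Traj58, against 22.7 and 24.2 kb in KO steady state. The mark of 90% lay at 28.8 and 28.1 kb in KO 24 h, against 47.1 kb in both KO steady-state libraries. The mean Traj number, weighted by usage (58 at the 5′ end), was 45.6 and 47.1 in KO 24 h, against 36.7 and 35.3 in KO steady state. The difference of means was 10.4, and 5.50 over the pairs above 0 in all 4 KO tables alone. A single value of 2 libraries against 2 cannot reach a two-sided exact permutation p below 0.33, so such values carry no test. The effective number of Traj segments (the exponential of Shannon entropy) was 23.6 and 21.1 in KO 24 h, against 36.8 and 37.6 in KO steady state.

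The WT libraries moved the same way at both ends of the array, with 14 of 43 segments higher (32.6%) and 21 lower (48.8%) at 24 h. The change itself differed between genotypes for 14 segments: for 13 (30.2%) it was lower in KO than in WT, and for 1, Traj2 (2.33%), it was higher. The 13 lie from Traj43 to Traj22, the middle of the array. Traj30 had the largest difference. It held 0.836% and 0.448% in KO 24 h, against 2.13% and 2.26% in KO steady state, and 1.87% and 1.39% in WT 24 h, against 2.48% and 2.57% in WT steady state (difference of changes log2 -1.18, adjusted p = 0.0368, limma). Traj27, Traj31 and Traj39 had differences of log2 -1.06, -0.87 and -0.82. Traj39 fell in KO and rose in WT (log2 -0.46 and 0.36, limma adjusted p = 0.00467 and 0.0172), and its KO fall turns round on the centred scale.

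Traj2 held 0.0461% and 0.0589% in KO 24 h, against 0.321% and 0.368% in KO steady state, and 0.194% and 0.211% in WT 24 h, against 2.15% and 2.36% in WT steady state. Its change was log2 0.90 higher in KO than in WT (adjusted p = 0.0234, limma). On the centred scale no segment differed between genotypes (0 at an adjusted p under 0.05, 11 at an unadjusted p under 0.05, limma). Same-numbered KO and WT libraries of a time deviated together. With a replicate block within each time, added after this was seen, the KO change was lower for 25 segments (58.1%) and higher for 1 (2.33%), including all 14 (limma, 3 residual degrees of freedom). With this block on the centred scale 10 differed, 6 of them among the 14: Traj39, Traj35, Traj31, Traj30, Traj27 and Traj2. Without the block, leaving out KO 24 h replicate 2, KO steady-state replicate 2, WT 24 h replicate 1 or either WT steady-state library gave a count of 0, and leaving out KO steady-state replicate 1 gave 5.

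**Figure D3:**
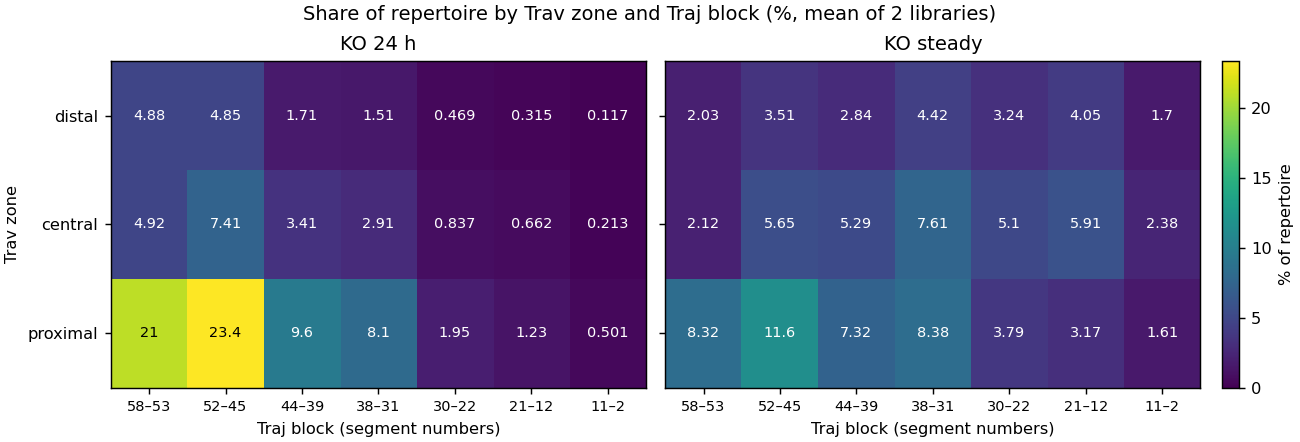
Share of the repertoire (%, mean of 2 libraries) by Trav zone (rows) and Traj block (columns, segment numbers), in KO 24 h (left) and KO steady state (right). In KO 24 h most of the repertoire lies in the 2 leftmost columns in every row, with 21.03% and 23.4% for proximal Trav; in KO steady state distal and central Trav have their highest shares in the column from Traj38 to Traj31, 4.42% and 7.61%.

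In KO steady state Trav and Traj position were linked: the partners of proximal Trav segments lay farther 5′ on average than those of distal ones, which were most often in the middle of the Traj array. In KO 24 h the link was weaker. The usage-weighted correlation of Trav rank (1 at the end far from the Traj array, 80 next to it) and Traj number over the pairs of a library was 0.0748 and 0.0328 in KO 24 h, against 0.263 and 0.279 in KO steady state. It was 0.114 and 0.0886 in WT 24 h, against 0.327 and 0.359 in WT steady state. These values describe pairs of 1 library each, and the groups did not overlap in either genotype.

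The 26 distal Trav segments had a mean Traj number of 46.3 and 47.9 in KO 24 h, against 33.4 and 31.8 in KO steady state. The 28 proximal segments had 46.1 and 47.3 in KO 24 h, against 40.6 and 39.8 in KO steady state. Proximal minus distal was thus -0.135 and -0.679 in KO 24 h, against 7.22 and 8.02 in KO steady state. Distal Trav in KO 24 h had joined Traj58 to Traj53 in 30.3% and 40.0% of their transcripts, against 10.2% and 8.45% in KO steady state. The share with Traj21 to Traj12 was 2.71% and 1.85% in KO 24 h, against 17.3% and 19.8% in KO steady state.

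Read from the Traj side, the partners of the 5′ end hardly moved. Among transcripts with Traj58 to Traj53, proximal Trav made up 68.7% and 67.8% in KO 24 h, against 67.1% and 66.2% in KO steady state. The difference between the means was 1.59 percentage points, and the groups did not overlap. Among transcripts with Traj21 to Traj12, proximal Trav made up 52.7% and 59.7% in KO 24 h, against 25.96% and 22.5% in KO steady state. Among those with Traj11 to Traj2 they made up 61.5% and 59.3% in KO 24 h, against 29.6% and 27.0% in KO steady state. The partners of 3′ Traj segments in KO 24 h thus had a proximal share closer to that of 5′ Traj segments. WT gave 57.8% and 60.6% at 24 h, against 19.7% and 14.9% in WT steady state, for the same 3′ block.

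**Figure D4:**
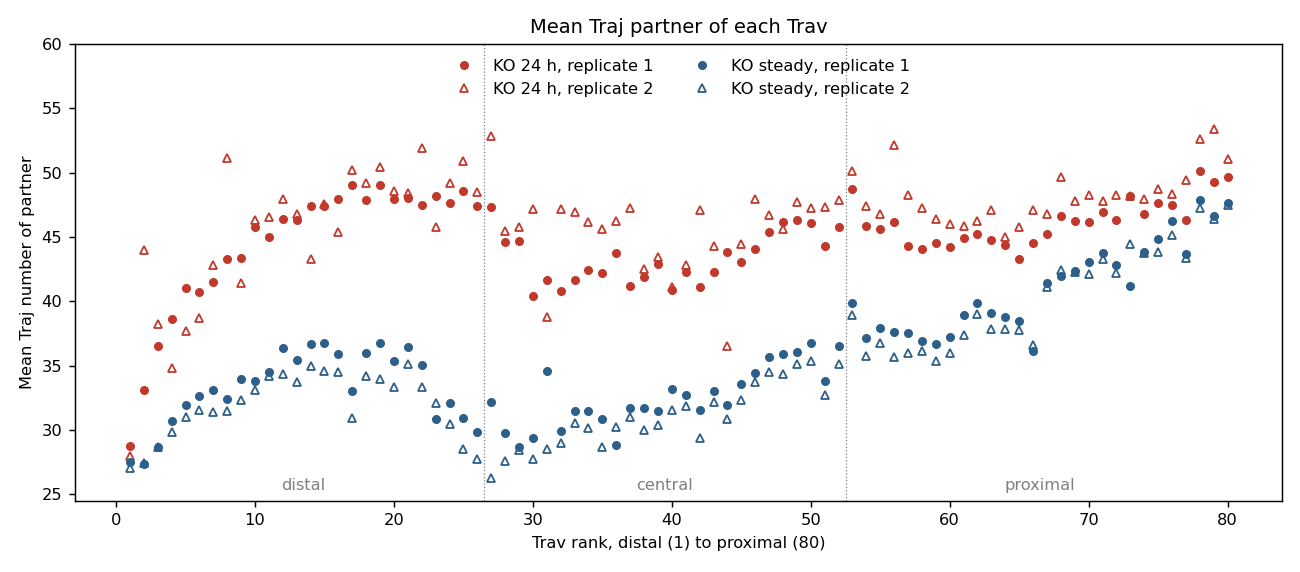
Usage-weighted mean Traj number of the partners of each of 80 Trav segments, by rank from distal (1) to proximal (80), in each KO 24 h library (red) and KO steady-state library (blue). The red points lie above the blue ones at every rank; the gap is 1.08 at rank 1 (Trav1), about 20 near rank 25 and 2.81 at rank 80 (Trav21-dv12).

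For each of the 80 Trav segments the mean Traj number was higher in both KO 24 h libraries than in both KO steady-state libraries. The median difference was 11.9 Traj numbers over the distal segments, 12.1 over the central and 6.12 over the proximal ones. The extremes named here were chosen after their values were seen. Trav1, the most distal segment listed in all tables, differed least: its partners averaged 28.8 and 28.0 in KO 24 h, against 27.5 and 27.0 in KO steady state. These means rest on 28 and 3 pairs above 0 in KO 24 h, against 42 and 43 in KO steady state, and in WT the difference for Trav1 was 6.68. Trav12d-2 averaged 48.6 and 50.9 in KO 24 h, against 30.9 and 28.5 in KO steady state, a difference of 20.0. Trav12d-3, at rank 27, differed by 20.8, with 7 pairs above 0 and a share of 0.0944% in KO 24 h replicate 2. Trav21-dv12, nearest to the Traj array, averaged 49.7 and 51.0 in KO 24 h, against 47.6 and 47.5 in KO steady state. The series along the chromosome was thus not a single slope. In KO 24 h replicate 1 it climbed from 28.8 at Trav1 to 49.0 at Trav12d-1, stepped down to 40.4 at Trav3d-3 and climbed again to 50.2 at Trav19. Replicate 2 scattered more, with 44.0 at Trav3-1, 50.4 at Trav12d-1, 47.2 at Trav3d-3, 36.5 at Trav6-4 and 52.7 at Trav19. Near-identical Trav copies limit this: of 78 segments with a reference sequence, 67 were at least 95% identical to another of them, and the counting could have split their reads.

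**Figure D5:**
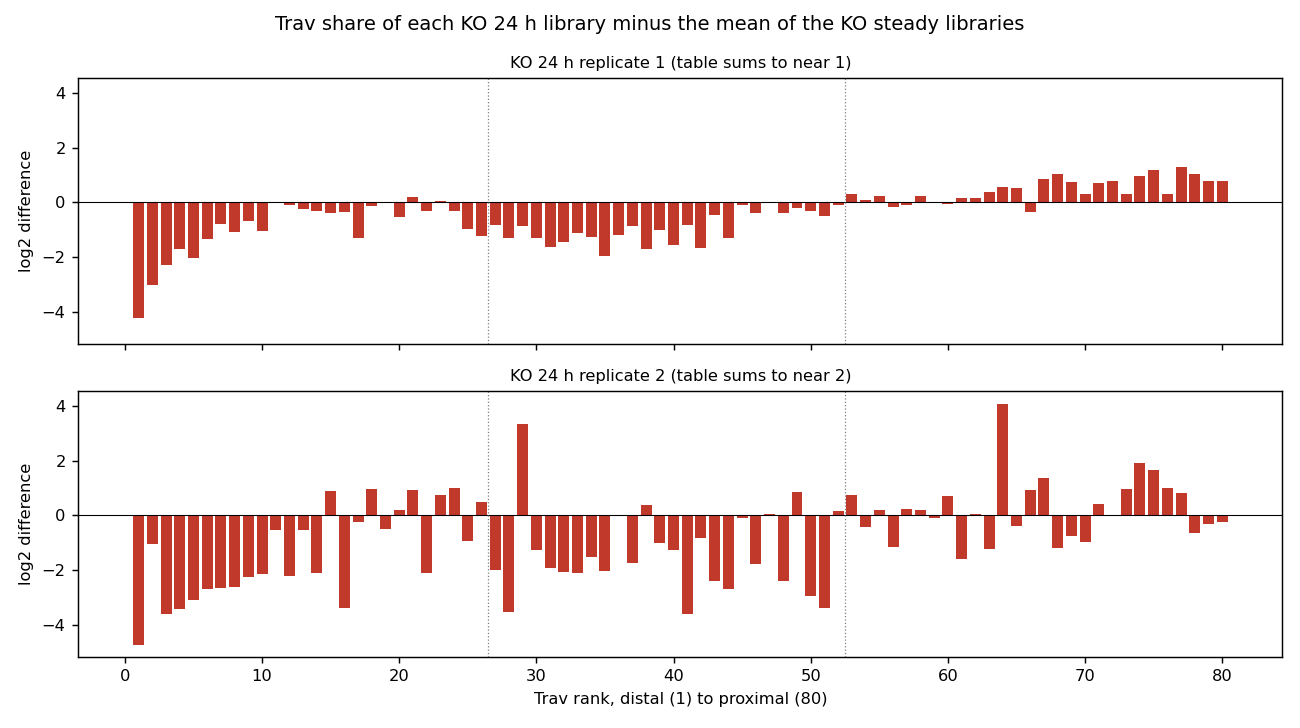
Log2(percent + 0.01) of each Trav share in KO 24 h replicate 1 (top) and replicate 2 (bottom) minus the mean of the 2 KO steady-state libraries, by Trav rank from distal (1) to proximal (80). The top panel is below 0 over most distal and central ranks and above 0 over most proximal ranks from 61 on; the bottom panel scatters more, with Trav15-2-dv6-2 at rank 64 at 4.09.

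By zone, Trav usage in the KO 24 h cohort lay toward the Traj array. Proximal Trav held 64.1% and 67.4% in KO 24 h, against 46.0% and 42.3% in KO steady state. Central Trav held 22.2% and 18.6% in KO 24 h, against 33.0% and 35.2% in KO steady state, and distal Trav 13.7% and 14.1% in KO 24 h, against 21.1% and 22.5% in KO steady state. The mean Trav rank was 55.0 and 55.2 in KO 24 h, against 46.8 and 45.4 in KO steady state, a difference of means of 8.99, and of 4.42 over the pairs above 0 in all 4 KO tables alone. Both KO 24 h libraries moved alike on these sums, but less so on the segments within them. The proximal sum includes the 2 Trav15 segments without the suffix d, which together held 1.63% and 12.96% in KO 24 h. The Spearman correlation of log2 fold change and Trav rank was 0.73 for KO 24 h replicate 1 and 0.47 for replicate 2, given as a description.

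Single Trav segments were harder to call. In the fit of all 12 libraries none of 80 rose (0.0%) and 5 fell (6.25%), with 17 at an unadjusted p under 0.05 (limma). With a term for the tables that sum to near 2, 12 rose (15.0%) and 30 fell (37.5%). In the 8 tables that sum to near 1, 13 rose (16.2%) and 32 fell (40.0%). There KO 24 h is replicate 1 alone, assumed to vary like the steady-state groups (2 residual degrees of freedom). By zone this fit called 14 of 26 distal and 18 of 26 central segments lower and none higher, and 13 of 28 proximal segments higher and none lower. Both added fits were chosen after the table totals had been seen. On the centred scale 2 rose (2.5%), Trav17 and Trav8-2, and 5 fell (6.25%).

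Trav1, the V segment of MAIT cells and the most distal, held 0.0453% and 0.0294% in KO 24 h, against 0.860% and 1.24% in KO steady state (log2 -4.48, SE 0.65, adjusted p = 0.00866, limma). Its mean share was 28.2 times higher in KO steady state, and it was the 1 of 80 segments (1.25%) that fell in WT (log2 -5.26, adjusted p = 0.00272, limma), where none rose. Trav6-2 held 0.0964% and 0.0412% in KO 24 h, against 0.380% and 0.489% in KO steady state (log2 -2.58, SE 0.50). Trav7-1 fell by 2.56, Trav9d-4 by 1.79 and Trav4d-4 by 1.76 on the log2 scale. Each of these 5 calls is lost without KO 24 h replicate 2 or without either KO steady-state library (adjusted p = 0.0561 to 0.240, limma), where the residual degrees of freedom also fall. The calls other than Trav1 are also lost without either WT steady-state library, that of Trav9d-4 without KO 24 h replicate 1, and that of Trav7-1 without either library of KO 48 h (limma adjusted p between 0.0709 and 0.0892). All 5 are called lower in the near-1 tables. Trav6-1 held 0.0890% and 0.0294% in KO 24 h, against 0.392% and 0.576% in KO steady state and was not called (log2 -2.96, adjusted p = 0.140, limma).

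Among the 13 segments with both KO 24 h libraries above both KO steady-state libraries (16.2% of 80), the 6 with the highest fold changes are all proximal, and none was called. Trav15-2-dv6-2 held 1.10% and 12.7% in KO 24 h, against 0.748% and 0.728% in KO steady state, so its fold change rests on replicate 2 (log2 2.33, and 0.57 without that library). In the other near-2 tables it was likewise higher than in its near-1 partner, by log2 3.17 in WT 24 h, 4.11 in KO 48 h and 5.02 in WT 48 h. Its reference sequence is 98.4% identical to Trav15d-2-dv6d-2, which held 0.156% and 3.07% in KO 24 h, against 0.276% and 0.317% in KO steady state. Trav14-3 held 4.63% and 8.95% in KO 24 h, against 2.38% and 2.34% in KO steady state (log2 1.44, adjusted p = 0.244, limma). Trav3-4, Trav4-4-dv10, Trav17 and Trav13-5 had log2 fold changes of 1.43, 1.09, 1.06 and 0.65.

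Trav17 held 3.22% and 2.32% in KO 24 h, against 1.53% and 1.11% in KO steady state. Trav19 held 2.68% and 0.823% in KO 24 h, against 1.43% and 1.16% in KO steady state, and the groups overlapped. Trav21-dv12 held 4.06% and 1.97% in KO 24 h, against 2.46% and 2.28% in KO steady state, with overlap too. The 4 segments Trav17, Trav19, Trav20 and Trav21-dv12 were each called higher in the near-1 tables and none in all 12 (0 of 4). Trav segments of the duplicated stretch, with the suffix d, summed to 18.2% and 20.97% in KO 24 h, against 29.1% and 30.5% in KO steady state. Of 34 tested, 2 fell, beside 5 of all 80 (6.25%), and the median was log2 -1.18 beside -0.42 over all 80. In the near-1 fit the median of the 34 was log2 -0.88, beside -0.32 over all 80. All 34 lie in the distal and central zones. The medians of these zones were log2 -1.18 and -1.40 in all 12 libraries, and -0.61 and -0.95 in the near-1 fit. Suffix and position were not tested apart. Trav2, next to Trav1 at the distal end, was not listed in all 4 KO tables and was not tested. No Trav segment differed in its change between genotypes (0 of 80 at an adjusted p and 0 at an unadjusted p under 0.05, limma; 0 and 4 with the replicate block within each time).

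Among single pairs, 15 rose (0.436%) and 187 fell (5.44%) of 3440. All 15 that rose use Traj58 to Traj48 and 184 of the 187 that fell use Traj38 to Traj2. By block, 12 of 320 pairs rose for Traj58 to Traj53 and 3 of 480 for Traj52 to Traj45. In the blocks from Traj38 to the 3′ end, 22, 43, 81 and 38 fell, each of 560. The pairs are parts of the Traj sums above, so this adds no separate evidence. No pair is called without KO 24 h replicate 2, without either KO steady-state library, without either WT steady-state library, or with a pseudocount of 0.001 (0 in each). Of the pairs in the near-1 fit, 445 rose (12.9%) and 1397 fell (40.6%), among them all 202. The fit with a table-kind term called 90 pairs higher (2.62%) and 367 lower (10.7%), and centring called 27 higher (0.785%) and 44 lower (1.28%). Both KO 24 h libraries lay above both KO steady-state libraries in 462 pairs (13.4%) and below both in 2025 (58.9%). Trav17-Traj57 had the highest fold change among called pairs of at least 0.1%. It held 0.284% and 0.388% in KO 24 h, against 0.108% and 0.0693% in KO steady state (log2 1.82, SE 0.30, adjusted p = 0.0308, limma). Trav4-4-dv10-Traj56, Trav17-Traj56, Trav14d-1-Traj56 and Trav4-4-dv10-Traj53 rose by log2 1.80, 1.73, 1.71 and 1.55. Trav7-3-Traj17 held 0.0190% and was listed at 0 in the KO 24 h libraries, against 0.107% and 0.112% in KO steady state (adjusted p = 0.0413, limma). Trav7-4-Traj26, Trav7-4-Traj15 and Trav14-1-Traj26 fell by 2.05, 1.96 and 1.14 on the log2 scale.

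The pairs with the highest mean share differed in part between the groups, and the KO 24 h ranking depends on replicate 2. In KO 24 h they were Trav15-2-dv6-2-Traj49 and the pairs of Trav14-3 with Traj56, Traj57, Traj52 and Traj53. Trav15-2-dv6-2-Traj49 held 0.104% and 1.35% in KO 24 h, against 0.0488% and 0.0461% in KO steady state, again a value of replicate 2. Trav14-3-Traj56 held 0.388% and 0.959% in KO 24 h, against 0.162% and 0.159% in KO steady state. In KO steady state the highest were Trav21-dv12 with Traj58, Traj57 and Traj56, Trav7-3-Traj31 and Trav14-3-Traj52. Trav21-dv12-Traj58, the pair of the 2 segments nearest each other, held 0.677% and 0.330% in KO 24 h, against 0.371% and 0.329% in KO steady state. It was the largest pair of KO 24 h replicate 1, as it was of both KO steady-state libraries. In KO 24 h replicate 1 Trav21-dv12 with Traj57 and Traj56 held 0.551% and 0.489%. The named pairs of Trav14-3 held 0.340% to 0.443% there. Trav7-3-Traj31 held 0.110% and 0.0178% in KO 24 h, against 0.184% and 0.200% in KO steady state. None of these 9 passed the test (adjusted p from 0.120 to 0.711, limma).

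The shares of pairs that mark other cells the gate could hold were as follows. The invariant NKT pair Trav11-Traj18 held 0.00824% and was listed at 0 in the KO 24 h libraries, against 0.0381% and 0.0472% in KO steady state. Its copy Trav11d-Traj18 was listed at 0 in both KO 24 h libraries, against 0.00502% and 0.00485% in KO steady state. The MAIT pair Trav1-Traj33 was listed at 0 in both KO 24 h libraries, against 0.0301% and 0.0444% in KO steady state. Of all 3440 pairs, 14.4% and 55.6% were listed at 0 in the KO 24 h libraries. The smallest shares above 0 there were 0.000824% and 0.00579%, the latter above both steady-state shares of Trav11d-Traj18. A listing at 0 is thus not a measured absence. The 10 Trav segments named dv, which can also join in Tcrd, summed to 16.4% and 28.6% in KO 24 h, against 13.4% and 12.2% in KO steady state; 3 of the 10 lay above and 4 below in both KO 24 h libraries, beside 13 (16.2%) and 38 (47.5%) of all 80, and none was called. The sum in KO 24 h replicate 2 includes the 12.7% of Trav15-2-dv6-2. The part of such cells in the results was not tested.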

How the data were processed

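Tcra transcripts of sorted DP thymocytes were measured in 12 libraries, 2 in each of 6 groups. The authors deposited, per the file headers, a table of fractions for each library, with Trav segments in rows and Traj segments in columns. No aligner, build or counted unit is given in the sources used here. Per the deposited totals, 8 tables sum to near 1 and 4 to near 2 (replicate 2 of each 24 h and 48 h group); no count was inferred, depth is unknown, and no interval is given. Each table was divided by its own total over the Trav segments in all 4 KO tables. Trav4d-2 is missing from KO 48 h replicate 2 and was fitted without it.

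Percentages were tested as log2(percent + 0.01) with limma 3.58.1 (R 4.3.3) over all 12 libraries, with a mean for each group (6 residual degrees of freedom) and Benjamini-Hochberg adjustment within Traj segments, Trav segments or pairs. A fold change on this scale understates the change of low shares. The difference between genotypes is the KO change minus the WT change. Same-numbered KO and WT libraries of a time deviated together (correlation of deviations from the group means over Traj 0.942 for the steady-state, 0.662 for the 24 h and 0.402 for the 48 h libraries); the labels name no shared litter or batch. The difference between genotypes is therefore also given with a replicate block within each time. The procedure without the block was tested on simulated data. Trav segments were ordered by GRCm38 position (GENCODE M21) and split into 26 distal, 26 central and 28 proximal. Values per library were computed with Python 3.11.15, numpy 2.4.6 and pandas 2.3.3.

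Named features were the called Traj segments with the 10 highest and 10 lowest fold changes, 6 each way for Trav (places left free went to uncalled segments whose libraries did not overlap), the 5 largest pairs of each group and 5 called pairs each way of at least 0.1%, the 5 largest genotype differences, and a fixed set of segments at the ends of the arrays. Only 4 pairs that fell reached 0.1%. The members and lists were chosen with earlier results of these data known. Alternatives covered the pseudocount, centring, a replicate block, array weights, a filter on low shares, fewer libraries, the denominator and the kind of table.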

Additional observations from a re-analysis of the deposited data

Results flagged for a closer look

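The change between 24 h and steady state differed between KO and WT at 14 Traj segments by the test of the difference itself (limma, adjusted p under 0.05, 2 libraries a group). The KO change was lower than the WT change by these log2 differences: -0.69 at Traj43, -0.53 at Traj42, -0.63 at Traj40, -0.82 at Traj39, -0.70 at Traj37 and -0.76 at Traj35. They were -0.68 at Traj34, -0.81 at Traj33, -0.76 at Traj32, -0.87 at Traj31, -1.18 at Traj30, -1.06 at Traj27 and -0.74 at Traj22. At Traj2 the difference was 0.90. On the centred scale none of the 14 passed, and 6 of them passed there with a replicate block within each time.

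The block from Traj38 to Traj31 lay lower at 24 h in both KO libraries and slightly higher in both WT libraries. It held 13.7% and 11.3% in KO 24 h, against 19.9% and 20.96% in KO steady state, a difference of means of -7.88 percentage points. It held 20.4% and 18.6% in WT 24 h, against 18.5% in both WT steady-state libraries, a difference of means of 0.981 percentage points. On the centred scale 4 of its 7 segments were called higher in KO and none lower. The difference between genotypes in this sum was not tested.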

How the results depend on the processing

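The 37 Traj calls of the KO comparison ranged from 34 to 40 over all settings, and from 36 to 37 when 1 library was left out. On the centred scale the 40 calls were 19 higher and 21 lower, against 9 and 28 in the main fit. There 9 Traj segments turned from negative to positive, Traj33 among them (0.21). Traj39, Traj35, Traj34 and Traj32 went from called lower to called higher. The Trav count of 5 was 9 with array weights, 1 with the 4 KO libraries alone, 42 with a term for the kind of table and 45 in the near-1 tables; leaving out 1 library gave 0 to 6. The pair count of 202 was 0 with a pseudocount of 0.001 (818 at an unadjusted p under 0.05, limma), 107 with 0.1, 71 on the centred scale, 933 with array weights, 132 with the low-share filter, 775 with the 4 KO libraries alone, 457 with the kind term and 1842 in the near-1 tables; leaving out 1 library gave 0 to 568. The 14 genotype differences were 26 with a replicate block within each time, 0 on the centred scale, 10 with both, and 0 to 21 when 1 library was left out. Over the pairs above 0 in all 4 KO tables, the mean Traj number differed by 5.50 (10.4 over all pairs), the mean Trav rank by 4.42 (8.99) and the coupling by -0.148 (-0.217). Leaving out 1 library gave 9.68 to 11.1, 8.28 to 9.70 and -0.238 to -0.196. The set of pairs above 0 is itself chosen by the outcome. Pairs listed at 0 leave it, and of 3440 these were 496 and 1914 in KO 24 h, against 54 and 51 in KO steady state. The cause of the shifts under the other settings was not tested. The replicate numbers did not pair 24 h with steady-state libraries: deviations of same-numbered KO 24 h and KO steady-state libraries correlated at -0.343 over Traj, 0.119 over Trav and 0.0934 over pairs. With the replicate block the counts were 17 Trav segments and 302 pairs, and with crossed numbers 23 and 372. Among single named features, 1153 values kept direction and call, 48 gained a call, 160 lost one and 1 turned. Traj31 and Traj39 are named there for their genotype difference only. Pairs near the smallest share listed, 0.00579% in KO 24 h replicate 2, are beyond what that table resolves.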

Other observations

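Some Trav segments lay outside the 80 because a KO table does not list them, and they are given as percent of all rows with no test. Trav2 held 0.0467% in KO 24 h replicate 1 and was not listed in replicate 2, against 0.761% and 0.943% in KO steady state. Trav5-1 held 0.171% and 0.0408% in KO 24 h, against 1.51% in KO steady-state replicate 2 alone. Trav13d-2 held 0.147% and 0.153% in KO 24 h, against 0.604% in KO steady-state replicate 2 alone. Over all 12 tables, Trav5-1 and Trav13d-2 are listed in the same libraries, those of 24 h and every replicate 2.

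The effective number of pairs was 1110 and 682 in KO 24 h, against 2046 and 2113 in KO steady state. The 10 largest pairs held 4.53% and 9.81% in KO 24 h, against 2.24% and 2.11% in KO steady state. Pairs listed at 0 made up 14.4% and 55.6% in KO 24 h, against 1.57% and 1.48% in KO steady state, and read depth is unknown. The value of KO 24 h replicate 2 includes Trav15-2-dv6-2-Traj49, at 1.35% there and 0.104% in replicate 1. How far depth sets these values was not tested.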
